A study of Sus scrofa with 6 samples.

Results

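The genes described here are the 9 genes of calcineurin and nuclear factor of activated T cells (NFAT) signalling that were listed by name: the calcineurin subunits PPP3CA, PPP3CB and PPP3R1, the transcription factors NFATC1, NFATC2, NFATC3 and NFATC4, and the calcineurin regulators RCAN1 and RCAN2. They were found by their Ensembl symbols on the Sscrofa11.1 assembly, and all 9 were present among the 25973 gene IDs with a protein-coding transcript. The study compared longissimus thoracis (LT), a muscle of the back, with semitendinosus (ST), a muscle of the hind limb, to find RNAs that differ between muscles of different meat quality. Both muscles were sampled from 3 wild-type Min pigs of the same age, a Chinese local breed, with no treatment, and total RNA was sequenced after removal of rRNA. This gave 6 libraries, 3 per muscle, and the LT and ST libraries of 1 replicate number are from 1 pig. The values are FPKM, in which the fragments counted on a transcript are divided by its length and by the total of the library, and FPKM was summed over all transcripts of a gene.

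Calcineurin is a phosphatase that is switched on by calcium and calmodulin. It consists of a catalytic A subunit, encoded by PPP3CA or PPP3CB, and a calcium-binding B subunit, encoded by PPP3R1. Active calcineurin removes phosphate groups from the NFATC proteins, which then enter the nucleus and act on genes together with partners such as MEF2, and the RCAN proteins bind calcineurin and restrain it. In skeletal muscle this pathway is known for maintaining the gene program of slow, oxidative fibres in response to sustained nerve activity, and RCAN1 is itself a known target gene of NFAT.

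Per library, FPKM summed to 378129 to 404473 in LT and 376461 to 402023 in ST. Fragment counts were not given per gene, so the depth behind single values is unknown and no counting interval was computed. Genes that define skeletal muscle were abundant in every library, for example ACTA1, the actin of skeletal muscle, at 1768 to 3025 FPKM. ST replicate 2 stood apart from the other ST libraries in its fibre genes. A list of 10 measured genes of slow fibres summed to 4771 to 7327 FPKM in LT and to 39679 and 40229.5 FPKM in ST replicates 1 and 3, but to 6540.3 FPKM in ST replicate 2. The 10 measured genes of fast fibres summed to 30652 to 39068 FPKM in LT, to 7398 and 3476 FPKM in ST replicates 1 and 3, and to 25051 FPKM in ST replicate 2. Results for the 9 genes that rest on ST replicate 2 are given with and without it.

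The muscles were compared by limma, using log2(FPKM + 0.1), over the 19679 genes that exceeded 0.1 FPKM in 1 or more libraries, and a gene was called when its Benjamini-Hochberg adjusted p was under 0.05 and its absolute log2 fold change above 1. All 9 genes passed the filter on low values in both muscles. Among them 1 gene, RCAN2, was called, against 0.579% of all genes tested. At an unadjusted p under 0.05 there were 4 of the 9, against 19% of all genes. The LT and ST libraries did not overlap for 4 of the 9 genes, 3 of them higher and 1 lower in ST. Of all genes, 24.8% did not overlap, 16.7% with ST higher and 8.16% with ST lower. The median log2 fold change of the 9 genes was 0.20, and that of all genes was 0.13. With the pig as a block, PPP3R1, RCAN1 and RCAN2 were called, against 4.26% of all genes. Without ST replicate 2, PPP3R1, NFATC3, RCAN1 and RCAN2 were called, against 5.15% of all genes. PPP3CB was also called when a transcript that the files assign to the neighbouring gene MSS51 was counted with it.

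**Figure D1:**
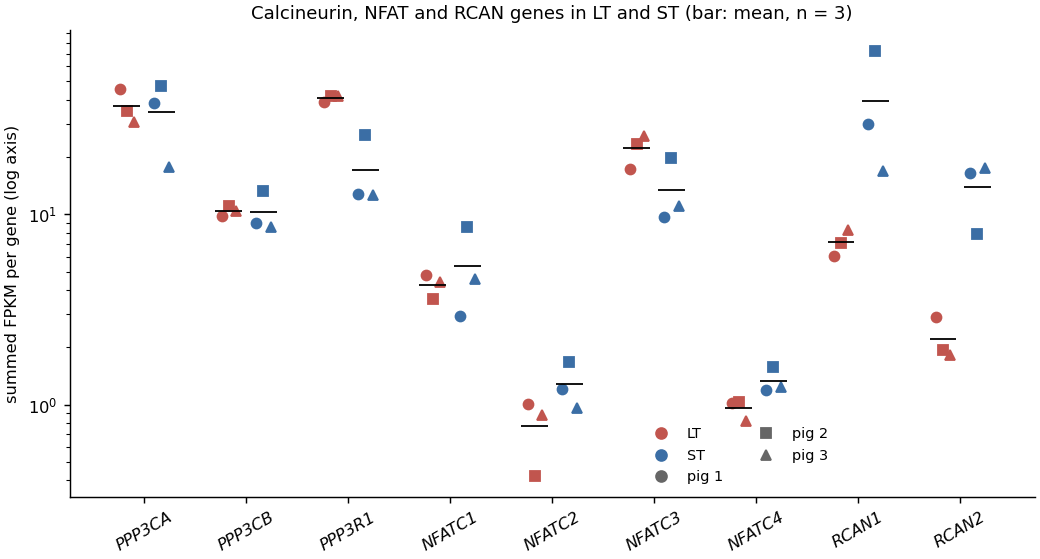
Summed FPKM per gene (vertical log axis) of the 9 genes in the 6 libraries, with red symbols for LT, blue symbols for ST, 1 symbol shape per pig and a bar at the mean of 3 libraries. RCAN1, RCAN2 and NFATC4 lay higher in all ST libraries and PPP3R1 lay lower, whereas the libraries of both muscles overlapped for the other 5 genes.

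The 9 genes differed widely in level, and since FPKM is a value per length, levels can be set beside each other within a muscle. The order given here is by the transcripts assigned to each gene, and the place of PPP3CB depends on this, as described below. In LT, PPP3R1 had the highest mean level with 41.0 ± 1.59 FPKM (SD, n = 3), and its range overlapped that of PPP3CA. NFATC3, PPP3CB, RCAN1, NFATC1 and RCAN2 followed in this order with no overlap between neighbours. NFATC4 and NFATC2 had the lowest levels and overlapped. In ST the order differed, with RCAN1 first, followed by PPP3CA, PPP3R1, RCAN2, NFATC3 and PPP3CB, and each of these overlapped the next. NFATC1 lay below PPP3CB with no overlap, and NFATC4 and NFATC2 were again the lowest and overlapped.

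By the transcripts assigned to them, the catalytic subunits did not differ detectably between the muscles. PPP3CA, the A subunit alpha (ENSSSCG00000009172, chromosome 8, 119428743 to 119754650, plus strand), had 45.8, 34.9 and 30.5 FPKM in LT replicates 1 to 3 and 38.3, 47.4 and 17.8 FPKM in ST replicates 1 to 3. The lowest and the highest values both belonged to ST, so that LT lay within the range of ST. The log2 fold change of PPP3CA in ST compared with LT was -0.20 ± 0.36 (SE), with a 95% interval from -1.02 to 0.63 and a limma adjusted p of 0.811. PPP3CA was lower in ST in 2 of 3 pigs, and without ST replicate 3 its log2 fold change was 0.22.

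PPP3CA has 6 transcripts, 5 of which passed 1 FPKM in at least 1 library and 1 of which was at 0 in all. ENSSSCT00000089757, with 12 exons, had 34.7, 0 and 23.5 FPKM in LT and 26.3, 34.9 and 0 FPKM in ST. ENSSSCT00000053288, with 13 exons, had 15.1 FPKM in LT replicate 2 and 6.05 FPKM in ST replicate 3, the same libraries in which the former was listed at 0, and at most 1.21 FPKM elsewhere. The exchange between these transcripts followed single libraries and not the muscle. ENSSSCT00000010044, with 16 exons, had 4.81, 13.8 and 4.72 FPKM in LT and 7.57, 9.67 and 11.5 FPKM in ST, with overlap. ENSSSCT00000048931, with 15 exons, had 5.12, 5.25 and 1.21 FPKM in LT and 0.365, 1.16 and 0 FPKM in ST. This transcript was lower in all ST libraries, by a log2 fold change of -3.09 ± 1.01 (SE), but with a limma adjusted p of 0.435. ENSSSCT00000075555, with 13 exons, ranged from 0.285 to 2.89 FPKM over the 6 libraries, and both ends of that range belonged to ST. Transcripts of a gene share exons, so their split is less certain than their sum.

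PPP3CB, the A subunit beta (ENSSSCG00000010301, chromosome 14, 76248849 to 76305328, minus strand), had 9.77, 11.06 and 10.5 FPKM in LT and 9.03, 13.3 and 8.62 FPKM in ST. The LT libraries lay within the range of the ST libraries, of which replicate 2 was the highest. Its log2 fold change was -0.04 ± 0.21 (SE), with a 95% interval from -0.52 to 0.44 and a limma adjusted p of 0.939, and the sign turned to 0.071 when the libraries were scaled to their nuclear transcripts. By these sums PPP3CA was more abundant than PPP3CB in every library, with a ratio of 3.59 ± 0.964 (SD, n = 3) in LT and 3.29 ± 1.11 in ST. Of the 3 transcripts of PPP3CB above 1 FPKM, ENSSSCT00000083467 was the most even, with 3.51 to 4.08 FPKM over all libraries. ENSSSCT00000035011 had 2.49 to 7.11 FPKM in LT and 1.68 to 4.89 FPKM in ST, and ENSSSCT00000011274 was listed at 0 in 3 libraries and had 2.89 to 6.43 FPKM in the others.

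The value of PPP3CB depends on where its exons are counted. ENSSSCT00000011273, a transcript with 21 exons that the files assign to the neighbouring gene MSS51, runs on the same strand from 76239498 to 76305330 and spans the whole of PPP3CB. It had 60.9, 86.1 and 80.8 FPKM in LT and 15.6, 4.71 and 4.43 FPKM in ST, with a log2 fold change of -3.43 ± 0.50 (SE) and a limma adjusted p of 0.108. All ST libraries lay below all LT libraries. With this transcript added to PPP3CB, the sum was 86.4 ± 13.9 FPKM (SD, n = 3) in LT and 18.6 ± 5.78 FPKM in ST, and the log2 fold change was -2.25 ± 0.26 (SE) with a limma adjusted p of 0.0182. By this sum PPP3CB lay above the other 8 genes in every LT library. MSS51 is known as a gene of fast glycolytic muscle. RefSeq gives PPP3CB from 76239497 to 76305345, nearly the extent of this transcript, and MSS51 from 76239497 to 76247414, within it. With the transcript counted, the sum of PPP3CA and PPP3CB was 116 to 132 FPKM in LT and 30.9 to 65.4 FPKM in ST, with no overlap, and PPP3CA over PPP3CB was 0.335 to 0.649 in LT and 1.37 to 2.62 in ST. How many fragments of the shared exons belong to either gene cannot be told apart from FPKM.

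PPP3R1, the regulatory B subunit (ENSSSCG00000036115, chromosome 3, 74000400 to 74071340, plus strand), was lower in ST. It had 39.2, 41.7 and 42.1 FPKM in LT and 12.8, 26.2 and 12.6 FPKM in ST. The muscles did not overlap, LT varied little, and ST replicate 2 lay between the other ST libraries and LT. The mean was 41.0 ± 1.59 FPKM (SD, n = 3) in LT and 17.2 ± 7.81 FPKM in ST, 2.38-fold lower, and ST was the lower muscle in 3 of 3 pigs. On the log2 scale ST minus LT was -1.34 ± 0.29 (SE), with a 95% interval from -2.00 to -0.67. The limma adjusted p was 0.0729 without a block, 0.0320 with the pig as a block and 0.00373 without ST replicate 2, where the log2 fold change was -1.68. When any other single library was left out, the adjusted p was 0.164 to 0.239, and without a variance trend it was 0.108.

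Both transcripts of PPP3R1 above 1 FPKM were lower in all ST libraries. ENSSSCT00000046520, with 7 exons, held 78.4% of the gene in LT and 80.9% in ST, so the transcripts kept similar shares in both muscles. It had 30.3, 34.6 and 31.6 FPKM in LT and 12.2, 19.5 and 9.18 FPKM in ST, a log2 fold change of -1.30 with a limma adjusted p of 0.269 among transcripts. ENSSSCT00000091289, with 6 exons, had 7.05 to 10.5 FPKM in LT and 0.586 to 6.67 FPKM in ST.

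Beside the A subunits, the level of the B subunit depended on the count of PPP3CB. By the transcripts assigned to each gene, the ratio of PPP3R1 to the sum of PPP3CA and PPP3CB reached 0.705, 0.909 and 1.03 in LT but 0.270, 0.432 and 0.476 in ST. These ratios did not overlap between the muscles, and the exact permutation test over 3 against 3 libraries cannot give a p below 0.1. With the transcript that spans PPP3CB counted, the ratio was 0.316 to 0.346 in LT and 0.203, 0.401 and 0.408 in ST, so that the muscles overlapped. The A and B subunits form the enzyme in equal numbers, and these ratios are of RNA and not of protein.

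**Figure D2:**
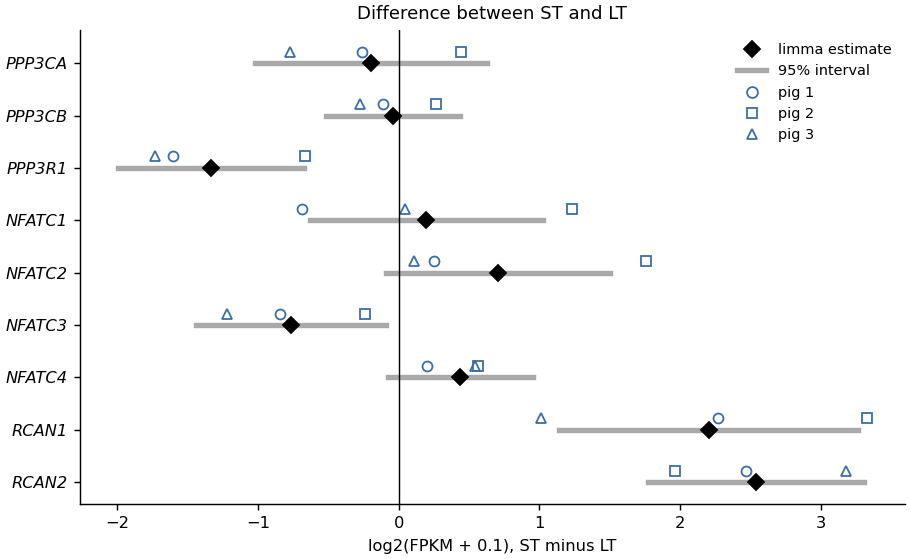
Difference between ST and LT (horizontal axis, log2(FPKM + 0.1), ST minus LT) for each of the 9 genes, with a diamond for the limma estimate, a grey line for its 95% interval and an open symbol for each pig. The intervals of PPP3R1 and NFATC3 lay below 0 and those of RCAN1 and RCAN2 above 0, and the interval of RCAN2 reached from 1.77 to 3.31.

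The NFATC genes encode the factors that calcineurin acts on. None of the 4 was called by limma as a gene, at adjusted p from 0.209 to 0.813, and NFATC3 alone among them had an unadjusted p under 0.05, at 0.0303. NFATC3 held the largest part of their summed level in every library, with 71.8% to 82.2% in LT and 62.1% to 64.4% in ST. The ranges of this share did not overlap. The sum over the 4 genes was 28.3 ± 3.96 FPKM (SD, n = 3) in LT and 21.5 ± 8.87 FPKM in ST, with overlap.

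NFATC1 (ENSSSCG00000004856, chromosome 1, 145911045 to 146017701, minus strand), which is known for its role in slow fibres, had 4.79, 3.61 and 4.43 FPKM in LT and 2.94, 8.61 and 4.57 FPKM in ST. ST replicate 2 was the highest and ST replicate 1 the lowest of all libraries. In limma the log2 fold change was 0.20 ± 0.36 (SE), with a 95% interval from -0.63 to 1.02 and a limma adjusted p of 0.813. Its sign was not stable, as it was -0.21 without ST replicate 2 and -0.005 after quantile normalization. NFATC1 has 9 transcripts, and ENSSSCT00000041715 held 81.0% of the gene in LT and 67.0% in ST. ENSSSCT00000052375 had 0.201 to 0.721 FPKM in LT and 0.280 to 1.05 FPKM in ST.

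NFATC2 (ENSSSCG00000007477, chromosome 17, 52743570 to 52906821, minus strand), which is known for its role in the growth of muscle fibres and in T cells, was the least abundant gene. It had 1.004, 0.424 and 0.885 FPKM in LT and 1.21, 1.67 and 0.962 FPKM in ST, with a log2 fold change of 0.71 ± 0.34 (SE) and a limma adjusted p of 0.312. ST was higher in 3 of 3 pigs, but LT replicate 1 lay above ST replicate 3. Leukocyte markers summed to 15.3 to 18.6 FPKM in LT and to 15.2, 33.1 and 32.3 FPKM in ST replicates 1 to 3, and their part in the level of NFATC2 was not tested.

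The muscles differed in which transcript of NFATC2 they held. ENSSSCT00000008184, with 12 exons and a spliced length of 6716 bases, had 0.0113, 0.00309 and 0.0139 FPKM in LT and 1.21, 1.57 and 0.936 FPKM in ST. ENSSSCT00000034393, with 11 exons, had 0.992, 0.421 and 0.871 FPKM in LT and 0.0068, 0.104 and 0.0257 FPKM in ST. The first was close to 0 in every LT library and the second close to 0 in every ST library, and their starts lie 16562 bases apart. The 12-exon transcript made up 1.14% ± 0.42 (SD, n = 3) of the gene in LT and 96.8% ± 2.88 in ST. The log2 fold change of the 12-exon transcript was 3.58 ± 0.35 (SE), with a limma adjusted p of 0.0276 over 52102 transcripts. It passed the filter of 0.1 FPKM only through ST, since all its LT values lay below 0.1 FPKM. Its call is therefore no independent support for the difference. Of the 42 listed transcripts of the 9 genes 30 were tested, and the 12-exon transcript was the 1 called, against 0.146% of all transcripts tested. Among the 30, the muscles did not overlap for 6 that were higher and 5 that were lower in ST, against 9.87% and 6.44% of all transcripts. With the pig as a block its adjusted p was 0.218 and none of the 30 was called, against 0.00384% of all transcripts, and over the fits that left out 1 library each it ranged from 0.0412 to 0.115. The 11-exon transcript, which was named after its values were seen, had a log2 fold change of -2.55 with a limma adjusted p of 0.193. The gene reached at most 1.67 FPKM, and the number of fragments behind the split is unknown.

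NFATC3 (ENSSSCG00000029578, chromosome 6, 28617445 to 28872058, plus strand), a factor known in muscle precursor cells as well as in lymphocytes, was the most abundant of the NFATC genes. It had 17.4, 23.4 and 26.0 FPKM in LT and 9.66, 19.7 and 11.101 FPKM in ST. ST was lower in 3 of 3 pigs, and ST replicate 2 lay above LT replicate 1. The log2 fold change was -0.77 ± 0.29 (SE), with a 95% interval from -1.44 to -0.09 and a limma adjusted p of 0.209. Without ST replicate 2 the log2 fold change was -1.08 with an adjusted p of 0.0374. When any other single library was left out, the adjusted p was 0.255 to 0.448. ENSSSCT00000048178, with 11 exons, carried most of the gene, with 12.9, 18.5 and 20.5 FPKM in LT and 3.20, 15.4 and 6.85 FPKM in ST. ENSSSCT00000050722, also with 11 exons, had 0.679 to 2.45 FPKM with overlap. Among the 4 transcripts above 1 FPKM were ENSSSCT00000025781, which runs into the neighbouring gene DUS2, and ENSSSCT00000062417, which runs into ESRP2, PLA2G15 and SLC7A6. These held 0.802 to 2.07 and 1.19 to 2.61 FPKM, and without both the log2 fold change of NFATC3 was -1.06 with a limma adjusted p of 0.185.

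NFATC4 (ENSSSCG00000001986, chromosome 7, 74918982 to 74931348, minus strand), a factor known from heart and nerve cells, had 1.02, 1.03 and 0.821 FPKM in LT and 1.20, 1.57 and 1.24 FPKM in ST. All ST libraries lay above all LT libraries, with a mean 1.40-fold higher. On the log2 scale ST minus LT was 0.44 ± 0.22 (SE), with a 95% interval from -0.08 to 0.95 and a limma adjusted p of 0.331. Its main transcript, ENSSSCT00000086344, had 0.312 to 0.850 FPKM in LT and 0.958 to 1.02 FPKM in ST.

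The regulators of calcineurin showed the largest differences among the 9 genes, by the transcripts assigned to each gene. RCAN1 (ENSSSCG00000012050, chromosome 13, 198102098 to 198205629, minus strand), which binds and restrains calcineurin, had 6.08, 7.05 and 8.30 FPKM in LT and 29.7, 71.9 and 16.8 FPKM in ST. Every ST library was at least 2-fold above every LT library, and ST replicate 2 was by far the highest. The mean was 7.15 ± 1.11 FPKM (SD, n = 3) in LT and 39.5 ± 28.8 FPKM in ST, 5.52-fold higher, and ST was higher in 3 of 3 pigs. The log2 fold change was 2.20 ± 0.46 (SE), with a 95% interval from 1.14 to 3.27. The limma adjusted p was 0.0713 without a block and 0.0327 with the pig as a block. Without ST replicate 2 the spread was smaller, the log2 fold change was 1.64 and the adjusted p was 0.0210. Over the fits that left out 1 library each, the adjusted p ranged from 0.0210 to 0.228.

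RCAN1 has 2 transcripts whose starts lie 87 bases apart. ENSSSCT00000042623, with 8 exons, carried 91.9% of the gene in LT and 91.2% in ST, which are similar shares. It had 5.95, 7.05 and 6.46 FPKM in LT and 25.2, 63.9 and 16.8 FPKM in ST, with a log2 fold change of 2.20 and a limma adjusted p of 0.260 among transcripts. ENSSSCT00000013182, with 6 exons, had 0.137, 0 and 1.84 FPKM in LT and 4.52, 7.97 and 0.0375 FPKM in ST, with overlap. An unannotated long non-coding RNA on the other strand within the gene, LNC_002790, had 0.258, 0.236 and 0.238 FPKM in LT and 0.942, 2.03 and 0.479 FPKM in ST. Its libraries stood in the same order as those of RCAN1 in ST but not in LT, and its limma adjusted p was 0.404. It was named after its values were seen.

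RCAN2 (ENSSSCG00000001716, chromosome 7, 40980523 to 41227021, minus strand), the second inhibitor of this family, rose in ST. It had 2.90, 1.95 and 1.83 FPKM in LT and 16.5, 7.89 and 17.5 FPKM in ST. The muscles did not overlap, and ST replicate 2 was the lowest of the ST libraries, whereas it was the highest for RCAN1. The mean was 2.23 ± 0.586 FPKM (SD, n = 3) in LT and 14.0 ± 5.28 FPKM in ST, 6.27-fold higher, and ST was higher in 3 of 3 pigs. In limma the log2 fold change was 2.54 ± 0.33 (SE), with a 95% interval from 1.77 to 3.31 and a limma adjusted p of 0.0291. The adjusted p was 0.0115 with the pig as a block and 0.00252 without ST replicate 2. Leaving out any other library ended the call, with adjusted p up to 0.148 and log2 fold changes of at least 2.34. In those fits 11 to 23 of all genes were called, against 114 with every library.

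The increase of RCAN2 was carried by ENSSSCT00000061108, which had 1.57, 1.93 and 1.38 FPKM in LT and 15.1, 7.56 and 16.3 FPKM in ST. It has 4 exons, and its start lies 136140 bases upstream of that of ENSSSCT00000001918, which also has 4 exons. Its log2 fold change was 2.86 ± 0.35 (SE), with a limma adjusted p of 0.0617 among transcripts. ENSSSCT00000001918 had 1.33, 0.0187 and 0.454 FPKM in LT and 1.45, 0.327 and 1.16 FPKM in ST, with overlap.

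**Figure D3:**
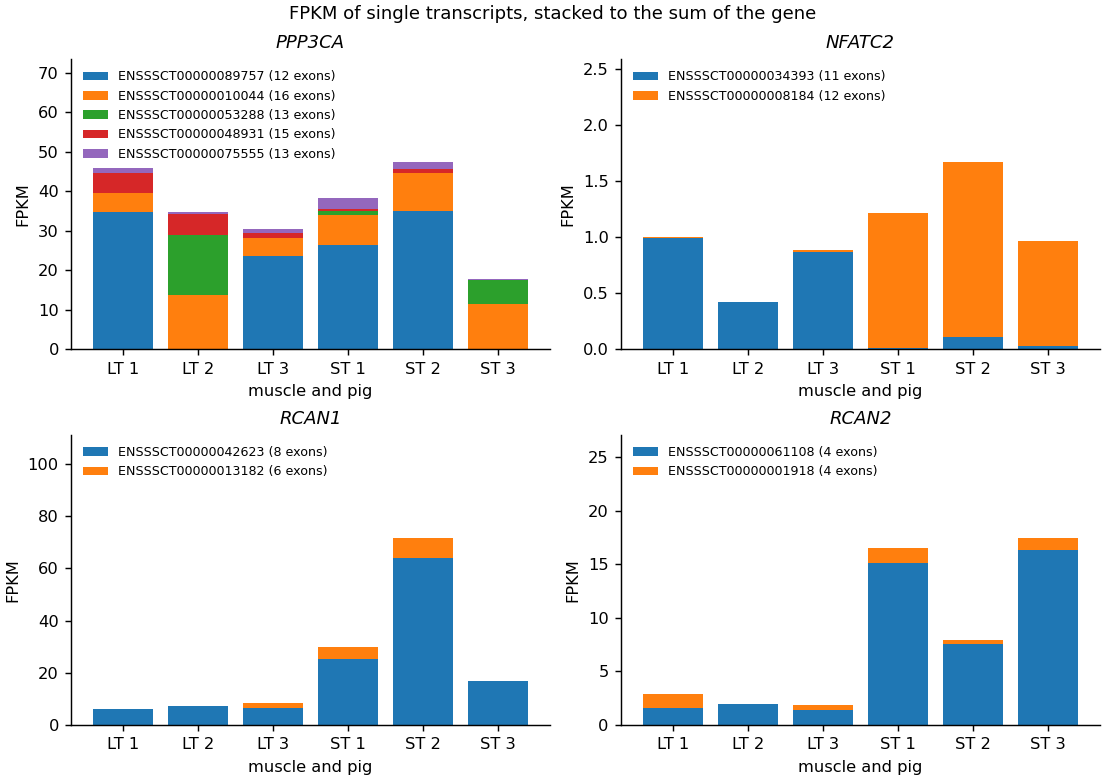
FPKM (vertical axis) of the single transcripts of PPP3CA, NFATC2, RCAN1 and RCAN2, stacked to the sum of the gene in each of the 6 libraries, where the number after LT or ST is the pig and each colour is a transcript. NFATC2 was held by the 11-exon transcript in LT and by the 12-exon transcript in ST, whereas the transcripts of PPP3CA changed places in LT replicate 2 and ST replicate 3.

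The balance of RNA between inhibitors and catalytic subunits was also read. The sum of RCAN1 and RCAN2 over the sum of PPP3CA and PPP3CB came to 0.162, 0.196 and 0.247 in LT, whereas it came to 0.976, 1.31 and 1.30 in ST. All ST libraries, replicate 2 included, lay well above all LT libraries. The same held with the transcript that spans PPP3CB counted, at 0.0682 to 0.0832 in LT and 0.735 to 1.22 in ST. RCAN2 made up 24.0% ± 7.38 (SD, n = 3) of the sum of RCAN1 and RCAN2 in LT and 32.2% ± 20.8 in ST, and the range in ST, from 9.89% to 50.9%, covered that in LT.

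RCAN2 had the smallest p of the 9 genes, by the transcripts assigned to each gene. The genes of most similar pattern were sought for RCAN2 among 9065 genes with a symbol and a mean of at least 1 FPKM. Over the 6 libraries the highest Pearson correlations of log2(FPKM + 0.1) were those of DZANK1 with 0.999, NDUFAB1 with 0.997, LYL1 with 0.996, ATP5PO with 0.995 and NOC2L with 0.994. NDUFAB1 and ATP5PO encode mitochondrial proteins of the respiratory chain and of ATP synthase, and LYL1 is a transcription factor of blood and endothelial cells. With 6 libraries in 2 muscles, such correlations mostly carry the difference between the muscles. ATP5PO, for example, had 250.0 to 291 FPKM in LT and 383 to 514 FPKM in ST.

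The other genes of the pathway were taken from a list of 58 genes, of which 54 were found and 53 tested. Among these 1 gene was called as higher in ST and none as lower, against 0.412% and 0.168% of all genes. At an unadjusted p under 0.05, 10 genes were higher and 7 lower in ST, against 13.1% and 5.88% of all genes. The median log2 fold change of the list was 0.23. With the pig as a block 6 of the 53 were called, against 4.26% of all genes, and without ST replicate 2 there were 8, against 5.15%. Over the 53, the muscles did not overlap for 13 genes that were higher and 7 that were lower in ST, against 16.7% and 8.16% of all genes. Of the 10 genes with the smallest p, 7 were higher and 3 were lower in ST. These 10 were picked by p in this same comparison, so the separation of the muscles for each of them adds no support.

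**Figure D4:**
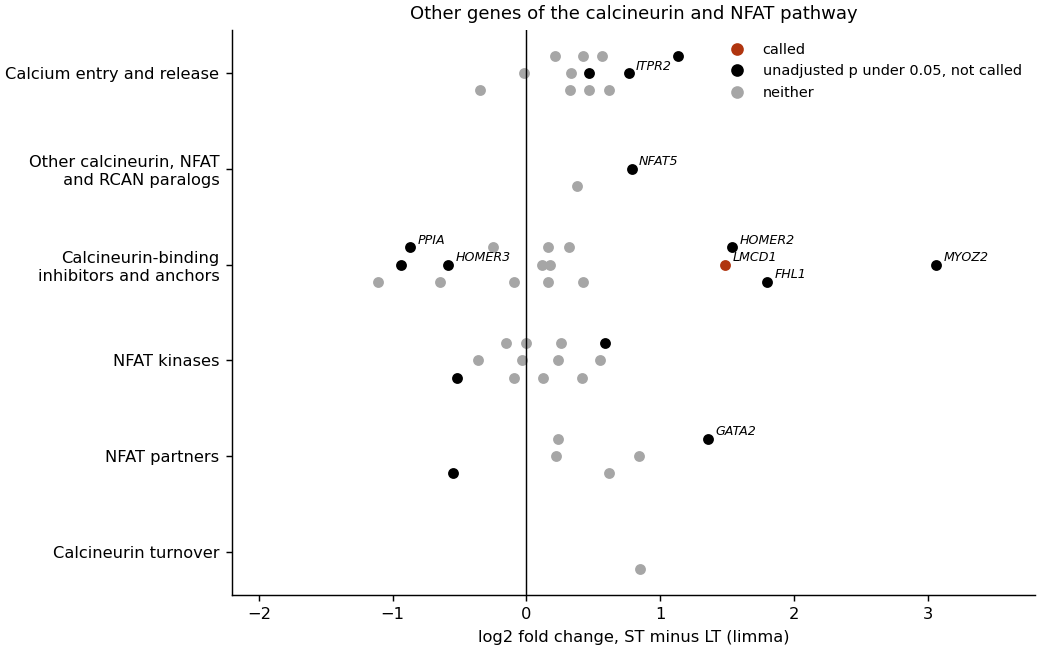
Log2 fold change (horizontal axis, ST minus LT) of other genes of the pathway by role, with red for the called gene, black for an unadjusted p under 0.05 and grey for the rest. LMCD1, at 1.49, was the 1 gene called, and MYOZ2, at 3.07, lay farthest from 0.

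The group listed as calcineurin inhibitors and anchors, 17 of the 53 tested genes, held 6 of these 10 genes, in both directions. The label is broad, since FHL1 and HOMER2 are described below by their relation to NFAT and PPIA by its role with ciclosporin. LMCD1, a LIM protein known to modify calcineurin signalling in the heart, rose from 35.5, 34.3 and 42.5 FPKM in LT to 103, 110.2 and 101 FPKM in ST. Its spread within each muscle was small, and its log2 fold change was 1.49 ± 0.17 (SE) with a limma adjusted p of 0.0189. FHL1, a LIM protein of muscle that is known to act with NFATC1, had 979, 786 and 1452 FPKM in LT and 4217, 2632 and 4268 FPKM in ST, with an adjusted p of 0.0678, or 0.0286 with the pig as a block and 0.0144 without ST replicate 2. MYOZ2, or calsarcin 1, tethers calcineurin to the Z disc of slow and heart muscle. It had 10.4, 11.2 and 19.4 FPKM in LT and 183, 27.8 and 266 FPKM in ST, with a log2 fold change of 3.07 and an adjusted p of 0.0914, or 0.0294 with the pig as a block. Without ST replicate 2 the log2 fold change of MYOZ2 was 4.06 with an adjusted p of 0.00226. The fast-fibre counterpart of MYOZ2, MYOZ1, had 2179 ± 450 FPKM (SD, n = 3) in LT and 1397 ± 318 FPKM in ST, with an adjusted p of 0.323. HOMER2, a scaffold protein known to compete with calcineurin for NFAT, had 14.3, 7.08 and 14.8 FPKM in LT and 39.0, 20.8 and 46.2 FPKM in ST, with an adjusted p of 0.0914, or 0.0112 with the pig as a block and 0.0240 without ST replicate 2. Over the fits that left out 1 library each, the adjusted p reached 0.244 for FHL1, 0.267 for MYOZ2 and 0.255 for HOMER2. HOMER3, a relative of HOMER2, lay lower in ST, with 68.5 ± 6.25 FPKM against 45.5 ± 2.62 FPKM and an adjusted p of 0.122. PPIA, the cyclophilin through which ciclosporin inhibits calcineurin, had 156 ± 22.5 FPKM in LT and 85.5 ± 11.2 FPKM in ST, with an adjusted p of 0.0848.

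Among the 12 genes of calcium entry and release, which include the STIM, ORAI, inositol trisphosphate receptor and TRPC families, none was called by limma. Of them 3 had an unadjusted p under 0.05 with ST higher and none with ST lower, against 13.1% and 5.88% of all genes. ITPR2, a calcium channel of the endoplasmic reticulum, had 5.77, 6.37 and 7.67 FPKM in LT and 11.6, 10.2 and 12.0 FPKM in ST, with a limma adjusted p of 0.0857, or 0.0461 with the pig as a block. NFAT5, a member of the NFAT family that does not depend on calcineurin, had 4.86 ± 0.985 FPKM (SD, n = 3) in LT and 8.36 ± 0.403 FPKM in ST, with an adjusted p of 0.0928. Among the partners of NFAT, GATA2, a transcription factor also found in endothelial and blood cells, had 0.720, 0.600 and 0.698 FPKM in LT and 1.27, 2.47 and 2.10 FPKM in ST, with an adjusted p of 0.0699, or 0.0397 with the pig as a block and 0.0575 without ST replicate 2. None of the 12 NFAT kinases, which return NFAT to the cytoplasm, was called by limma. At an unadjusted p under 0.05 there was 1 higher (MTOR) and 1 lower (MAPK9), against 13.1% and 5.88% of all genes. Both were named after their values were seen. The median log2 fold change of the kinases was 0.06.

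The fibre genes give the setting of these values. Of 10 measured genes of slow fibres, 13 being listed, none was called by limma, all 10 had an unadjusted p under 0.05 with the higher level in ST, against 13.1% of all genes, and the median log2 fold change was 1.95. The 3 with the smallest p were MYH7B, MYL3 and MYOZ2, which is also on the pathway list. MYL3, a light chain of slow myosin, had 283, 200.1 and 293 FPKM in LT and 1789, 465 and 1884 FPKM in ST. With the pig as a block 6 of the 10 were called, against 4.26% of all genes, and all 10 without ST replicate 2, against 5.15%. Of 10 measured genes of fast fibres, 14 being listed, none was called by limma, 7 had an unadjusted p under 0.05 with the lower level in ST, against 5.88% of all genes, and the median log2 fold change was -2.36. The 3 with the smallest p were TPM1, ACTN3 and TNNT3. With the block 1 of the 10 was called and without ST replicate 2 there were 8, against the same shares of all genes. MYH7, MYH1, MYH2 and MYH4 were not matched to a gene ID of their own and are not analysed here. In bulk muscle, fewer fibres of a type and less RNA per fibre cannot be told apart.

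The 9 genes did not all follow the fibre genes across the ST libraries. Relative to the mean of LT on the log2 scale, the median of the slow-fibre list was 2.78, 0.46 and 2.77 in ST replicates 1 to 3. RCAN2 had 2.86, 1.81 and 2.95 and PPP3R1 had -1.67, -0.64 and -1.69, so for both genes ST replicate 2 lay nearest to LT. RCAN1 had 2.05, 3.32 and 1.24, with ST replicate 2 the farthest from LT, and NFATC1 had -0.52, 1.003 and 0.10. These are descriptions of 3 libraries, and no test was made on them.

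**Figure D5:**
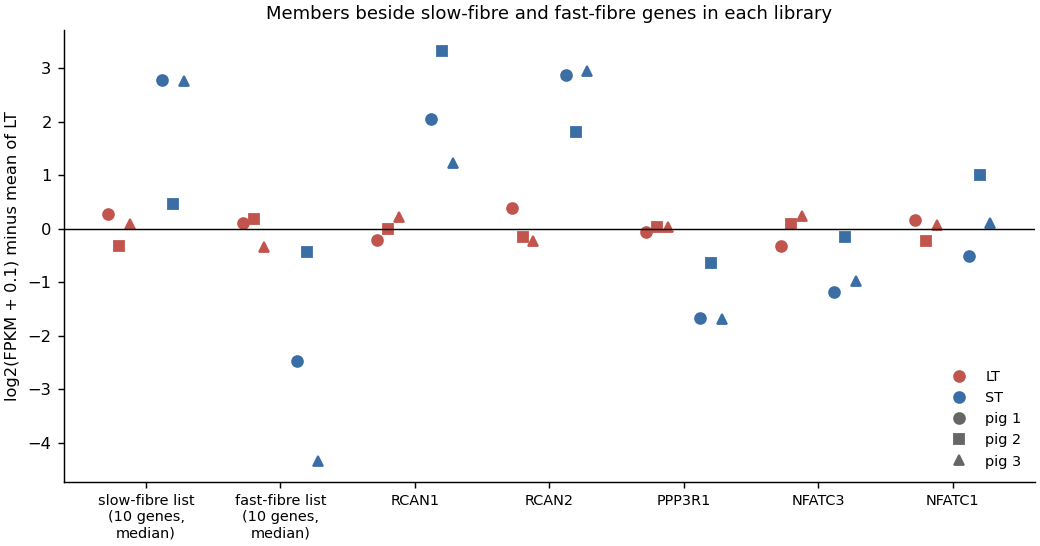
Level relative to the mean of LT (vertical axis, log2(FPKM + 0.1)) of the slow-fibre and fast-fibre lists, each as the median of 10 genes, and of 5 of the genes, with 1 symbol shape per pig. ST replicate 2 lay near LT for both lists, at 0.46 and -0.43, but at 3.32 for RCAN1.

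Markers of other cell types were read in the same libraries. Of 5 measured endothelial genes all had an unadjusted p under 0.05 with the higher level in ST, against 13.1% of all genes. PECAM1 and CDH5 were called as higher, with limma adjusted p of 0.0424 and 0.0399, against 0.412% of all genes. The summed level of the 5 genes was 50.6 to 76.1 FPKM in LT and 119 to 176 FPKM in ST. PECAM1, the most abundant, had 24.9 to 40.4 FPKM in LT and 75.5 to 90.6 FPKM in ST. The 5 smooth muscle genes summed to 99.1 to 128 FPKM in LT and to 138 to 177 FPKM in ST, with TAGLN the most abundant. Of them 3, and 2 of the 6 leukocyte genes, had an unadjusted p under 0.05 with ST higher, against 13.1% of all genes. CD163 was the most abundant of the leukocyte genes. The ranges of the summed level overlapped for the 6 adipocyte genes, with 134 to 251 FPKM in LT and 124 to 189 FPKM in ST and PLIN4 the most abundant, and for the fibroblast, blood, Schwann cell and satellite cell genes, led by COL3A1, HBB, PMP22 and CALCR. Among the 6 measured genes of skeletal muscle fibres TNNC2 was the most abundant over the 6 libraries, and it is also on the fast-fibre list. RCAN1 is also known in endothelial cells, and the part of other cell types in the higher levels of RCAN1 and RCAN2 in ST was not tested. Mitochondrial transcripts held a share of FPKM times length, which estimates fragments, of 3.49% ± 0.688 (SD, n = 3) in LT and 7.56% ± 1.24 in ST, and their part in the differences was not tested either.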

How the data were processed

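The 6 libraries are from both muscles of 3 Min pigs. The authors filtered the reads, mapped them to the pig genome with HISAT2 and assembled them with StringTie. The authors deposited FPKM for each transcript, and these were used as they stand. FPKM were summed over all transcripts of each gene ID. Since FPKM are not counts, limma 3.58.1 (R 4.3.3) was used on log2(FPKM + 0.1) with a variance trend, for features with FPKM above 0.1 in at least 1 library, with Benjamini-Hochberg adjustment over all genes or all transcripts. Fold changes on this scale understate the change of low genes. For single values an exact 2-sided permutation test was also made, in which p cannot go below 0.1. Tables were made with Python 3.11.15, numpy 2.4.6 and pandas 2.3.3, and figures with matplotlib 3.10.9. The fit was first tested on simulated data.

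The genes and the lists were chosen with earlier results of these data known. Named were the 9 genes, their transcripts above 1 FPKM or called, the 10 pathway genes with the smallest p and any called, the 3 fibre genes of each list with the smallest p, the most abundant gene of each other cell list, and 5 genes of similar pattern to the gene with the smallest p. FHL1, PPIA, MYOZ2, CASQ2, TPM3 and FKBP1A were matched by position to RefSeq on the same assembly, with more than 50% reciprocal overlap. Of these, 1 pathway gene is not reported here. PPP3CC, PPP3R2, SLA2 and JUN were not matched, and FOXP3 did not pass the filter.

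The replicates are separate pigs. The pairing of LT and ST by pig comes from the methods of the study and the replicate numbers. Residuals of the same pig correlated at 0.276 to 0.303 over genes, against -0.199 to -0.116 for different pigs. For each gene the residuals of a muscle sum to 0, so positive values for the same pig bring negative ones for different pigs. The negative values therefore add no further support for the pairing. The alternatives were other pseudocounts and filters, the pig as a block, quantile normalization, rescaling to nuclear transcripts, no variance trend, Ensembl transcripts alone and leaving out each library. Chosen after the data were seen were NFATC3 without the transcripts that run into other genes, PPP3CB and its ratios with the spanning transcript assigned to MSS51, and shares of transcripts.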

Additional observations from a re-analysis of the deposited data

How the results depend on the processing

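With the pig as a replicate block, the number of the 9 genes called was 3 in place of 1, of the other pathway genes 6 in place of 1, of the slow-fibre genes 6 in place of 0 and of the fast-fibre genes 1 in place of 0, and no transcript of the 9 genes was called in place of 1. Without a filter on FPKM the calls were 0 among the 9 genes, 0 among their transcripts and 0 among the pathway genes, and without a variance trend they were 0 among the 9 genes and 0 among the pathway genes. With rescaling to nuclear transcripts, 2 transcripts, 3 pathway genes and 1 slow-fibre gene were called. Of the transcripts 0 were called with log2(FPKM + 1) and 0 with FPKM above 1 in at least 1 library. Over the fits that left out 1 library each, the calls ranged from 0 to 4 for the 9 genes, from 0 to 2 for their transcripts, from 0 to 8 for the pathway genes, from 0 to 10 for the slow-fibre genes and from 0 to 8 for the fast-fibre genes, and the highest number came without ST replicate 2 in each case. The cause was not tested. Over all genes, 114 were called, but 6 without a filter on FPKM and 31 without a variance trend. There were 62 after quantile normalization, 343 after rescaling, 838 with the block and 1006 without ST replicate 2. When any other single library was left out, 11 to 23 of all genes were called, so calls were lost over all genes as well. The median log2 fold change of all genes was 0.13, -0.007 after quantile normalization and 0.22 after rescaling.

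The log2 fold change changed sign for 3 genes without a call. It was 0.071 for PPP3CB after rescaling and -0.0049 for NFATC1 after quantile normalization. Over the fits that left out 1 library each it ranged from -0.48 to 0.22 for PPP3CA, from -0.24 to 0.074 for PPP3CB and from -0.21 to 0.55 for NFATC1. Among transcripts without a call, it was -0.022 for ENSSSCT00000053288 with log2(FPKM + 1), -0.077 for ENSSSCT00000083467 after quantile normalization and 0.016 for ENSSSCT00000041715 after rescaling. Over the fits without 1 library it ranged from -0.38 to 1.10 for ENSSSCT00000075555, from -2.67 to 2.80 for ENSSSCT00000089757, from -0.61 to 3.12 for ENSSSCT00000053288, from -0.60 to 0.46 for ENSSSCT00000041715 and from -0.14 to 0.47 for ENSSSCT00000025781. The signs for PPP3R1, NFATC2, NFATC3, NFATC4, RCAN1 and RCAN2 held under every alternative run. Of the values of the 9 genes under the alternatives, 117 kept their direction and their side of the threshold, 6 passed it anew, 7 no longer passed it and 7 changed sign.

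With 3 libraries per muscle and no fragment counts, the precision of single transcripts cannot be stated, and values under 1 FPKM, such as those of the NFATC2 transcripts, carry the most uncertainty.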

Other observations

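Besides the transcripts of the 9 genes, 31 other transcripts overlapped their loci, 11 of them long non-coding RNAs. Of these 31, 25 were tested, and none was called by limma, at unadjusted p from 0.000313. The spanning transcript assigned to MSS51 had that lowest p. Within NFATC3 on the other strand, LNC_009175, an unannotated non-coding transcript with 2 exons, had 0.834, 1.14 and 1.25 FPKM in LT and 0.0312, 0.799 and 0.233 FPKM in ST. The libraries did not overlap, as for 6.44% of all transcripts with ST lower, and ST replicate 2 lay nearest to LT, as it did for NFATC3 itself. The log2 fold change of LNC_009175 was -1.77 ± 0.70 (SE), with a limma adjusted p of 0.502. It was named after its values were seen.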
